A study of Mus musculus with 18 samples.

Results

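The genes described here encode the oxidase with which phagocytes make superoxide and the enzymes that remove superoxide and hydrogen peroxide. The set was 9 of the 24485 genes in the files, found by symbol: Cybb, Cyba, Ncf1, Ncf4 and Rac2 of the oxidase, and Sod1, Sod2, Gpx1 and Cat of removal. All 9 were present in all 18 libraries, each with a whole number of counts in every library. The RNA came from bone marrow-derived macrophages (BMDMs), which were grown in L929-conditioned medium from 12-week-old male mice on the C57BL/6J background. Every group carried the Il10-/- genotype, controls included, so that no group had its own interleukin 10 (IL-10). In the 3 unstimulated groups the cells were left untreated, given 500 nM (+)-JQ1 or given 10 ng/mL recombinant IL-10 for 12 h, and then received PBS for 4 h. In the 3 stimulated groups the same pretreatments came before 4 h of lipopolysaccharide (LPS) at 50 ng/mL, and the study's methods name a vehicle in place of no treatment there. Any effect of that vehicle cannot be told apart from that of LPS in cells without pretreatment, or from a pretreatment's in unstimulated cells. The interactions share this limit. Each group had 3 libraries, and since the labels call the samples matched and name 3 mice, libraries with the same replicate number are taken here to be from the same mouse. (+)-JQ1 is a small molecule that keeps BET bromodomain proteins off acetylated histones, and LPS, from the outer membrane of bacteria, activates macrophages. The comparisons ask how LPS changed the RNA of these genes, and what BET inhibition or IL-10 did to them with and without LPS.

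The phagocyte oxidase carries electrons from NADPH across a membrane to oxygen and so makes superoxide, inside the phagosome or outside the cell. Its membrane core pairs the catalytic gp91phox, encoded by Cybb, with p22phox, encoded by Cyba, and the core is silent until cytosolic partners, among them p47phox (Ncf1), p40phox (Ncf4) and the small GTPase Rac2, join it. Superoxide dismutases turn superoxide into hydrogen peroxide in the cytosol (Sod1) and in mitochondria (Sod2), and glutathione peroxidase 1 (Gpx1) and catalase (Cat) break the peroxide down. Inherited loss of oxidase subunits causes chronic granulomatous disease, in which phagocytes fail to kill certain bacteria and fungi.

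The sequence before the start site is shown for Cybb, Ncf1, Sod2 and Gpx1, since the text turns on 2 oxidase genes and 2 removal genes whose responses to LPS and to (+)-JQ1 ran differently. Each window is the 250 bases upstream of an annotated start in RefSeq on GRCm38.p6, written 5′ to 3′ on the strand of the gene. Entries were matched by symbol for 7 members, and Ncf4 and Rac2 had none. Capitals mark matches, on either strand, to GAGGAA (ETS core), TGANTCA (AP-1), the core of the interferon-stimulated response element (ISRE), TTNNGNAA (C/EBP), GGGCGG (GC box) or the NF-kB consensus.
Cybb, chrX:9469325-9469574, minus strand: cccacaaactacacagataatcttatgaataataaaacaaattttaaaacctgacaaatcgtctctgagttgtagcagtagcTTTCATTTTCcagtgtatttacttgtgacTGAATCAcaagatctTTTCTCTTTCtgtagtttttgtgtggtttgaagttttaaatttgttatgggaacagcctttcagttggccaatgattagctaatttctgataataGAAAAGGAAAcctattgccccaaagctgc
Ncf1, chr5:134229626-134229875, minus strand: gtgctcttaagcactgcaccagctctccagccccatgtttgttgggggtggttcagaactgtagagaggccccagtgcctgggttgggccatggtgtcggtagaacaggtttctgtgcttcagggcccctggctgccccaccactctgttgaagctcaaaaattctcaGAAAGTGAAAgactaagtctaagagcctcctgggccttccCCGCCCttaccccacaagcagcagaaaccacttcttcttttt
Sod2, chr17:13007589-13007838, plus strand: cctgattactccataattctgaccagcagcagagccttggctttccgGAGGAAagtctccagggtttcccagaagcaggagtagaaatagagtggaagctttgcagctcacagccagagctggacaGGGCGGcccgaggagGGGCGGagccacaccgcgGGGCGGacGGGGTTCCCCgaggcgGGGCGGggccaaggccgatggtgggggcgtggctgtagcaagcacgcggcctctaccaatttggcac
Gpx1, chr9:108338830-108339079, plus strand: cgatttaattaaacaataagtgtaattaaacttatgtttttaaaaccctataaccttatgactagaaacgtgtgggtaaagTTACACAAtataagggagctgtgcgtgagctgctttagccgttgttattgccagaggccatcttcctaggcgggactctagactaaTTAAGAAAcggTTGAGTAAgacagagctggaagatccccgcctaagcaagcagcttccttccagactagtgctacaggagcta
The Cybb window held 3 matches to the ISRE core and 1 AP-1 match, and the AP-1 and NF-kB patterns, though not the printed letters, matched on both strands at the same place and are counted once. The ISRE core lay in 2 of the 7 windows, Cybb and Ncf1, and in 2.98% of the 32851 windows of the same length in the RefSeq table. AP-1 lay in 1 of the 7 windows and in 6.75% of all windows. The Sod2 window held the only NF-kB match of the 7, against 3.9% of all windows, together with 4 GC boxes and 1 ETS core. The Gpx1 window held 3 C/EBP matches, and a C/EBP match lay in 36.8% of all windows, a GC box in 32.7% and an ETS core in 23.3%. No capital stretch in these 4 windows was shared by matches to different motifs. These matches describe letters in the windows and were not tested as binding sites.

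Library totals ran from 6781952 to 28289498 expected counts, so that 3 counts came to a CPM of 0.106 to 0.442, while the lowest count of any member in any library was 387 (Ncf4). Normalised read counts below are expected counts divided by the DESeq2 median-of-ratios size factor, and a gene is called where its Benjamini-Hochberg adjusted p from the DESeq2 Wald test over all genes was under 0.05. All 7 macrophage markers found in the files, of 8 listed, were at 1 TPM, the length-scaled transcript level, or more in every group, and they summed to 14070 to 29055 TPM per library. Most of that sum was Lyz2, and single markers moved between groups. Mean Itgam was 309 TPM in untreated and 86.3 TPM in (+)-JQ1 cells without LPS. After LPS mean Csf1r went from 1622 to 613 TPM, while Adgre1 went from 685 to 908 TPM and Cd14 from 590 to 1736 TPM. Of 10 neutrophil markers, Ly6g was at 0 in all libraries and Mpo and Elane stayed at or under 0.09 and 0.15 TPM, while S100a8 ran from 2.91 to 37.6 TPM, S100a9 from 3.85 to 40.9 TPM and Ngp from 0.70 to 8.15 TPM over the libraries. Reads were still counted on Il10, with group means from 32.5 normalised counts in unstimulated to 155 in LPS + IL-10 cells, and these counts do not check the genotype, since the deleted part of the gene was not given. In bulk RNA, fewer cells of a type and less RNA per cell cannot be told apart.

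On the per-length TPM scale Cyba was the most abundant member in unstimulated cells, at 1737 ± 121 TPM (mean ± SD, n = 3). Sod1 (613 ± 62.7 TPM) and Gpx1 (577 ± 35.3 TPM) followed, and their ranges overlapped (541 to 651 and 551 to 617 TPM). Below them came Cybb (338 ± 57.0 TPM), Ncf1 (223 ± 22.9), Cat (196 ± 5.71), Ncf4 (154 ± 21.3), Rac2 (79.3 ± 0.977) and Sod2 (39.8 ± 14.8). Ncf1 and Cat lay next to each other without overlap (207 to 249 and 189 to 200.0 TPM), and Cat stood above Ncf4 (138 to 178 TPM). After LPS the order was Cyba (1281 ± 53.7 TPM), Cybb (1004 ± 168), Sod2 (471 ± 32.2), Sod1 (334 ± 42.1), Ncf1 (326 ± 21.0), Gpx1 (207 ± 26.5), Ncf4 (136 ± 6.33), Rac2 (131 ± 2.72) and Cat (62.8 ± 4.15). Sod2 thus went from the last place to the third, and Cat from the sixth to the last, while Sod1 and Ncf1 overlapped (297 to 379.9 and 302 to 342 TPM), as did Ncf4 and Rac2 (131 to 143 and 129 to 134 TPM). In LPS + (+)-JQ1 cells Cyba (1161 ± 72.3 TPM) led Sod1, Cybb and Gpx1, which overlapped between 506 to 634 TPM for Gpx1, 601 to 678 TPM for Cybb and 566 to 688 TPM for Sod1. Sod2 (403 ± 12.2 TPM), Cat (101 ± 3.65), Ncf1 (80.7 ± 1.21), Rac2 (64.2 ± 5.38) and Ncf4 (37.5 ± 3.25) came after them. In LPS + IL-10 cells Cyba (1265 ± 67.1 TPM) and Cybb (1047 ± 169 TPM) overlapped in range, Sod2 was at 674 ± 70.9 TPM, and Rac2 at 235 ± 20.1 TPM stood level with Gpx1 at 209 ± 18.7 TPM.

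**Figure D1:**
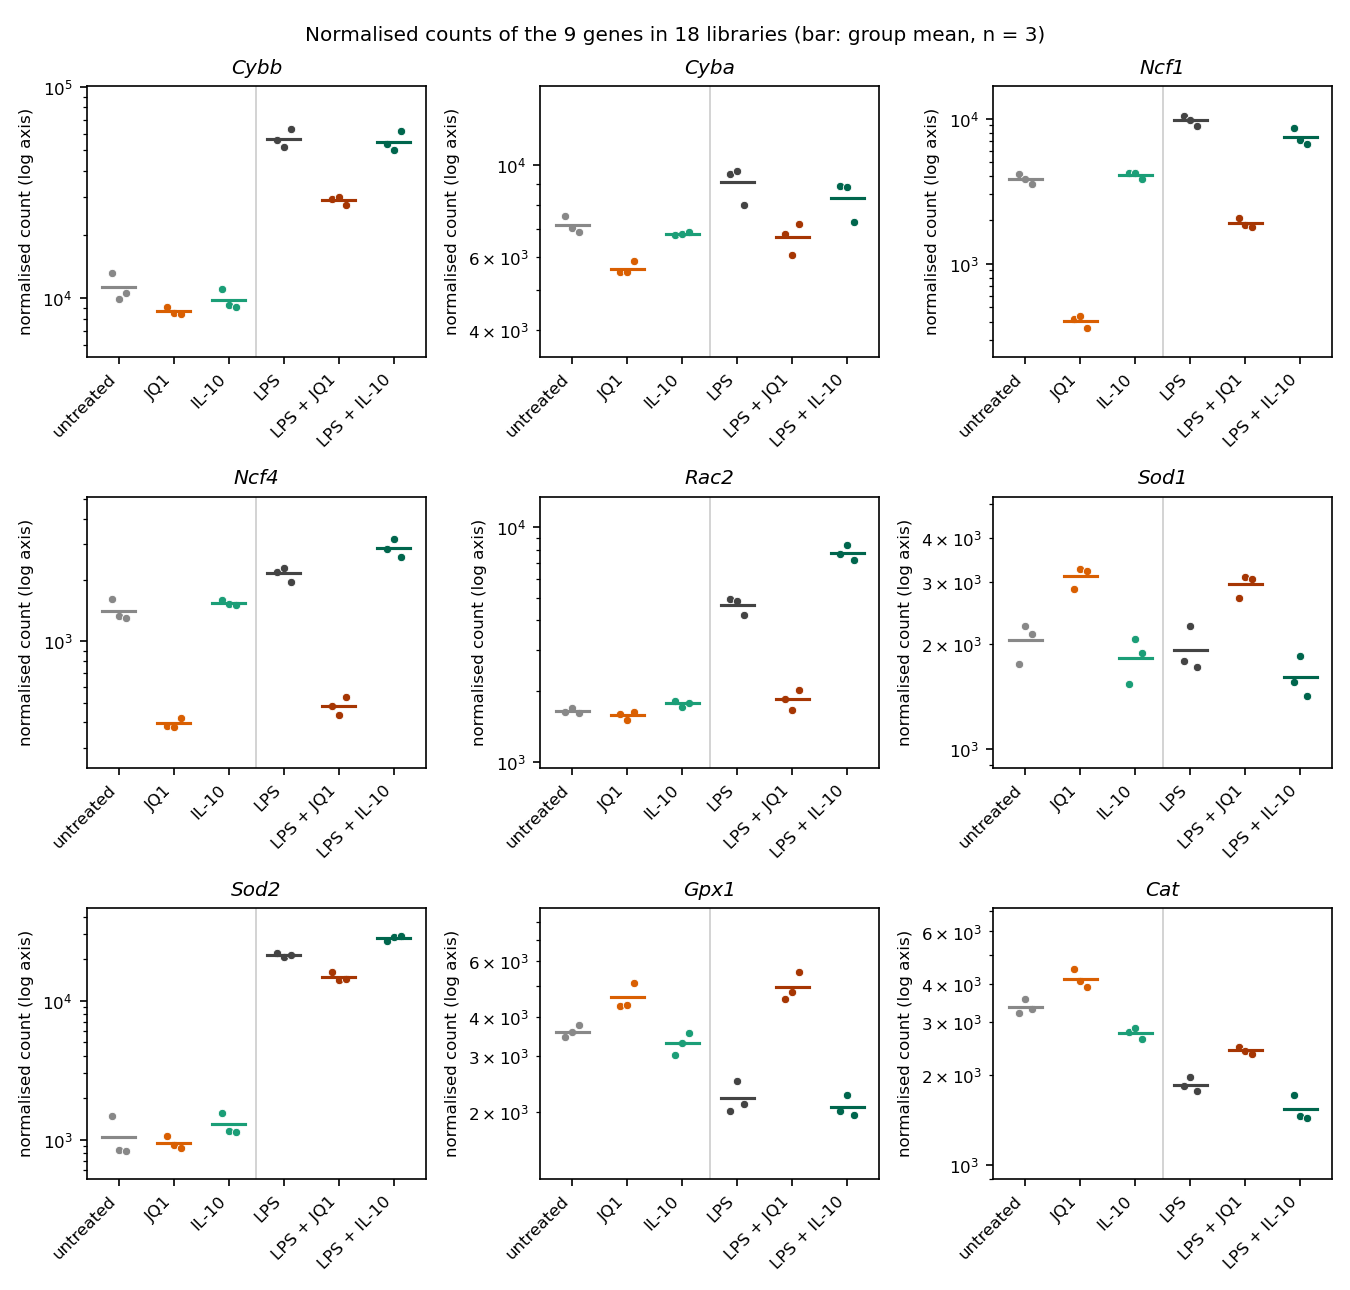
Normalised read counts (log axis) of the 9 genes in the 6 groups, with 1 point per library and a bar at the mean of the 3 libraries. Sod2 and Cybb stand higher in every LPS library than in any unstimulated library, and Ncf1 is lowest in unstimulated cells given (+)-JQ1, at 364 to 440 normalised counts.

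LPS raised the RNA of all 5 oxidase genes under this scaling, from 1.27-fold for Cyba to 5.07-fold for Cybb, and raised mitochondrial Sod2 by 20.2-fold, while Gpx1 and Cat fell to 61.5% and 55.1% of their unstimulated levels. The signs of Cyba (-0.58 and -0.44 on the log2 scale) and Ncf4 (-0.32 and -0.17) turned under total-count and TPM scaling. With total counts the log2 values of Cybb, Ncf1, Rac2 and Sod2 were 1.42, 0.41, 0.58 and 3.41 in place of 2.34, 1.34, 1.50 and 4.34, and those of Gpx1 and Cat -1.63 and -1.79 in place of -0.70 and -0.86, each still called. Of the 9 members, 6 rose, 2 fell and 1, Sod1, did not pass the test, against 63.1% of all 15285 genes tested that were called (30.8% higher, 32.2% lower). Counts in LPS-stimulated and unstimulated cells did not overlap for 8 members, against 67.9% of all genes tested.

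For the membrane core, Cybb was at 13151, 9955 and 10570 normalised counts in the unstimulated libraries of mice 1, 2 and 3 and at 55949, 51774 and 63084 after LPS. The lowest LPS library stood far above the highest unstimulated library, and the log2 fold change was 2.34 (SE 0.11, adjusted p = 1.92e-97). Cyba was at 7534, 7048 and 6884 and rose less, to 9536, 9684 and 8011, with no overlap between the groups (0.34 on the log2 scale, SE 0.09, adjusted p = 0.000325). Under total-count and TPM scaling the Cyba value turned to -0.58 and -0.44, on scales where the median of all genes with a mean of at least 10 counts lay at -0.96 and -0.70, against -0.03 here and -0.11 with TMM factors. Relative to the median under total-count scaling Cyba lay 0.38 higher. The share of called genes of that abundance that were higher after LPS likewise went from 49.5% to 46.3% with TMM factors, 20.5% with total counts and 23.4% with TPM.

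For the cytosolic partners, the organizer Ncf1 went from 4136, 3851 and 3522 normalised counts to 10468, 9759 and 8849.8, with every LPS library above every unstimulated one (2.53-fold, log2 1.34, SE 0.10, adjusted p = 9.23e-39). In the GENCODE vM1 annotation the longest overlap between an exon of Ncf1 and one of Gtf2ird2, on the opposite strand, was 175 bases. The counting did not use strand, and Ncf1 held a whole number of counts in all 18 libraries. Whether reads from the overlap were counted for the wrong gene was not tested. Gtf2ird2 held 52.8 to 132 normalised counts per library over all groups. Ncf4, whose product binds phosphoinositides on the phagosome, went from 1615, 1326 and 1307 to 2203, 2304 and 1966 (1.52-fold, log2 0.61, adjusted p = 9.4e-09), a sign that turned to -0.32 with total counts and -0.17 with TPM and lay 0.64 above the median of all genes on the total-count scale. Rac2 encodes a GTPase that switches the assembled enzyme on in blood-derived cells. Its counts went from 1634, 1689.6 and 1618 to 4954, 4826 and 4227, with no overlap (2.84-fold, log2 1.50, SE 0.08, adjusted p = 1.89e-75).

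Among the removal enzymes Sod2 moved most, from 1489, 839 and 831 normalised counts to 22087, 20685 and 21318 (20.2-fold, log2 4.34, SE 0.17, adjusted p = 7.69e-139). The unstimulated library of mouse 1 stood apart from the other two in Sod2, and without it the log2 value was 4.68. The cytosolic dismutase Sod1 was at 1751, 2249 and 2134 before and 1786, 2242 and 1719 after LPS, with overlapping groups (log2 -0.09, 95% interval -0.36 to 0.17, adjusted p = 0.592), and on the total-count and TPM scales it was called lower (-1.02 and -0.88). Gpx1 fell from 3445, 3572 and 3759.9 to 2012, 2501 and 2107, and Cat from 3214, 3584 and 3313 to 1831, 1967 and 1764, both without overlap (log2 -0.70 and -0.86, adjusted p = 3.51e-11 and 1.56e-27). The median log2 fold change of the 9 members was 0.61, and that of all genes tested was -0.06.

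**Figure D2:**
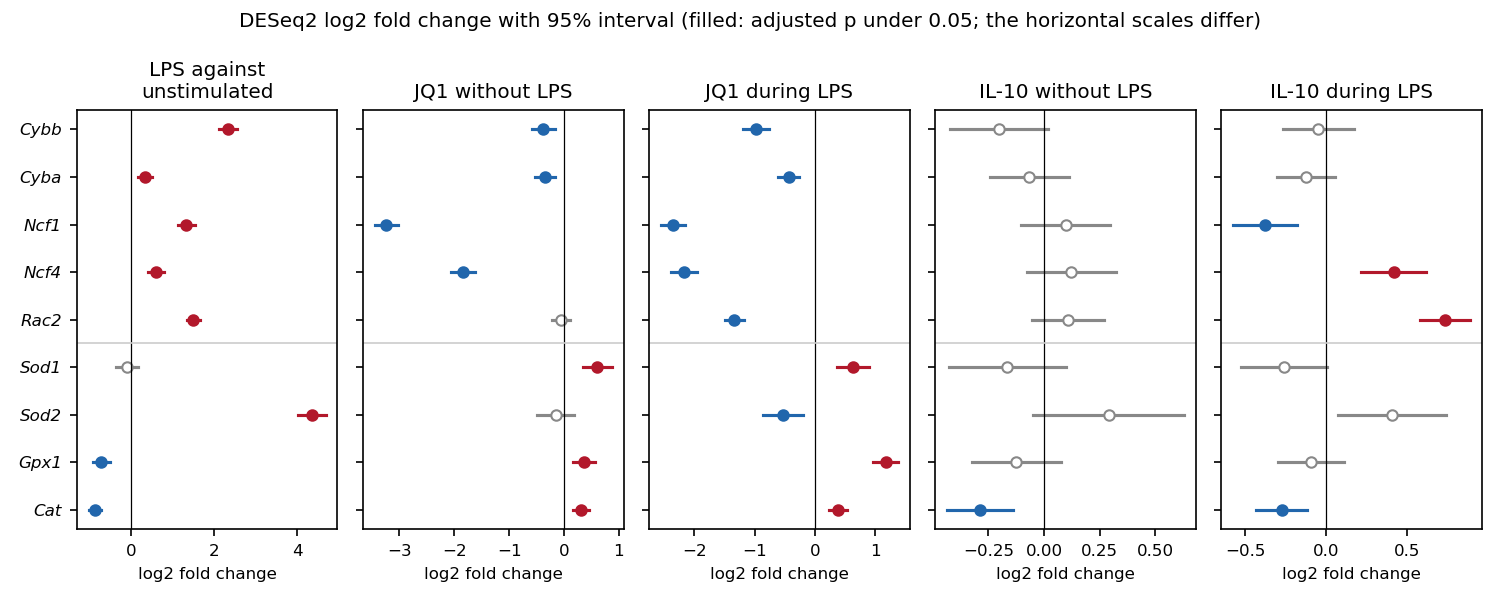
Log2 fold change of each of the 9 genes with its 95% interval in 5 comparisons, filled where the gene was called by the DESeq2 Wald test. The panels have separate horizontal scales, the value for Sod2 after LPS is the largest at 4.34, and the signs of Cyba and Ncf4 after LPS turn under total-count and TPM scaling.

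In unstimulated cells (+)-JQ1 acted most on Ncf1 and Ncf4, which fell to 10.6% and 27.9% of untreated. The other cytosolic partner, Rac2, was not called (log2 -0.06). Cybb and Cyba fell to 77.2% and 78.7%, and Sod1, Gpx1 and Cat rose by 1.24- to 1.53-fold. In all, 3 members rose, 4 fell and 2 did not pass, against 44.4% of all genes tested that were called (21.3% higher, 23.1% lower). The groups did not overlap for 7 members, against 57.6% of all genes. Of the called genes with a mean of at least 10 counts, 49.4% were higher here, 48.2% with TMM factors, 27.5% with total counts and 24.7% with TPM, and the median of those genes went from 0.01 to 0.00, -0.16 and -0.16.

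Ncf1 was at 415, 439.6 and 364 normalised counts with (+)-JQ1, so that every treated library held far fewer than the lowest untreated count of 3522 (log2 -3.24, SE 0.11, adjusted p = 2.36e-192). Ncf4 was at 386, 381 and 419, also without overlap with the untreated counts of 1307 to 1615 (log2 -1.84, SE 0.11, adjusted p = 8.69e-63). Neutrophils also express Ncf1 and Ncf4, and the summed TPM of the 10 neutrophil markers ran from 24.3 to 88.8 in untreated and from 7.50 to 17.5 in (+)-JQ1 libraries, with Ly6g at 0 in both. Most of that sum was S100a8, at a mean of 17.3 TPM in untreated and 4.01 TPM in (+)-JQ1 cells, and S100a9, at 23.9 and 5.86 TPM. The neutrophil sum came to at most 88.8 TPM, and the macrophage marker sums to 22865 TPM or more in these groups. Most of the macrophage sum was Lyz2, at a mean of 18407 TPM in untreated and 24665 TPM in (+)-JQ1 cells, so these sums do not give shares of cells. The part of neutrophils in the result was not tested. Gtf2ird2, which overlaps Ncf1, was at 91.7, 72.9 and 76.9 normalised counts in the (+)-JQ1 libraries and 132, 94.7 and 119 in the untreated ones, and its part in the Ncf1 values was not tested either.

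Cybb was at 9082, 8514 and 8401 and Cyba at 5525, 5515 and 5859.5 with (+)-JQ1 (log2 -0.37 and -0.35, adjusted p = 0.00254 and 0.000562). Without the untreated library of mouse 1, which was the highest in Cybb, the Cybb value was -0.24 (adjusted p = 0.0539), and with mouse 1 left out of every group Cybb (-0.27, adjusted p = 0.0793), Cyba (-0.29, adjusted p = 0.0821) and Cat (0.22, adjusted p = 0.0694) missed the threshold. Rac2 was at 1596, 1504 and 1635, overlapping the untreated libraries (log2 -0.06, 95% interval -0.22 to 0.10, adjusted p = 0.603), and was called lower on the total-count and TPM scales (-0.24 and -0.26). Among the removal enzymes, Sod1 was at 2860, 3266 and 3223 normalised counts, every one above the untreated maximum of 2249 (1.53-fold, log2 0.61, adjusted p = 2.54e-05). Gpx1 was at 4343, 4376 and 5112 and Cat at 4488, 4093 and 3912 (log2 0.36 and 0.31, adjusted p = 0.00146 and 0.000215), and both calls were lost with total-count scaling (0.18 and 0.13, adjusted p = 0.155 and 0.124) and with TPM (0.16 and 0.10, adjusted p = 0.254 and 0.224). Sod2 was at 1067, 908 and 877 (log2 -0.15, adjusted p = 0.523), and the sign turned to 0.19 (adjusted p = 0.242) without the untreated library of mouse 1.

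During LPS (+)-JQ1 moved every member: the 5 oxidase genes and Sod2 were lower than with LPS alone, from 19.6% for Ncf1 to 73.8% for Cyba, and Sod1, Gpx1 and Cat were higher by 1.30- to 2.25-fold. So 6 members fell and 3 rose, against 57.3% of all 14326 genes tested that were called (32.9% lower, 24.4% higher). All 9 had groups that did not overlap, against 61.8% of all genes tested. The call for Cyba was lost with total counts (-0.06, adjusted p = 0.577) and TPM (-0.14, adjusted p = 0.0713), as was that for Sod2 (-0.15, adjusted p = 0.494, and -0.22, adjusted p = 0.286), while no sign turned among the 9 members. With total counts Cybb was at -0.60, Rac2 at -0.96, Sod1 at 1.00 and Cat at 0.75, all still called. The median of all genes with a mean of at least 10 counts was -0.09 here, 0.03 with TMM factors, 0.29 with total counts and 0.18 with TPM, and the share of calls that were higher was 43.6%, 51.1%, 65.9% and 62.9%.

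In the membrane core, Cybb was at 29491, 29964 and 27675 normalised counts in LPS + (+)-JQ1 cells, about 51.0% of the level with LPS alone (log2 -0.97, SE 0.11, adjusted p = 1.42e-17). The 3 libraries lay close together (29043 ± 1208, mean ± SD), and all were under the lowest LPS library at 51774. Cyba was at 6825, 6057 and 7228 (73.8%, log2 -0.44, adjusted p = 4.68e-06).

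The cytosolic genes fell further. Ncf1 was at 2067, 1858 and 1778 normalised counts against at least 8849.8 with LPS alone (log2 -2.35, SE 0.10, adjusted p = 5.91e-114), and Ncf4 was at 482, 433 and 531 against at least 1966 (22.3%, log2 -2.17, SE 0.11, adjusted p = 4.46e-88). Rac2, whose libraries had overlapped with and without (+)-JQ1 in unstimulated cells, was at 1861, 1668 and 2025 against 4954, 4826 and 4227 with LPS alone (39.6%, log2 -1.34, SE 0.08, adjusted p = 3.08e-59). The neutrophil marker sum was 13.3 to 30.1 TPM in LPS + (+)-JQ1 and 35.9 to 51.8 TPM in LPS libraries, and its part in these values was not tested.

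Among the removal enzymes, Sod2 stayed high at 16014, 14115 and 14396 normalised counts (69.5% of LPS alone, log2 -0.53, SE 0.17, adjusted p = 0.00435), and without mouse 3 the value was -0.50 (adjusted p = 0.12). Gpx1 was at 4549, 4802 and 5543, each more than the highest LPS library at 2501 (2.25-fold, log2 1.17, SE 0.10, adjusted p = 1.12e-28). Sod1 was at 2704, 3087 and 3060.2 (1.54-fold, log2 0.62, adjusted p = 1.08e-05), and Cat at 2479, 2405 and 2349 (1.30-fold, log2 0.38, adjusted p = 4.72e-06). The median over the members was -0.53, and over all genes tested -0.11.

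Set against unstimulated untreated cells, LPS + (+)-JQ1 cells held 49.6% as much Ncf1 and 33.9% as much Ncf4, but 2.59-fold more Cybb and 14.1-fold more Sod2 (log2 -1.01, -1.56, 1.37 and 3.81, adjusted p = 5.35e-22, 4.69e-46, 4.81e-34 and 2.9e-107). Here 4 members were called higher, 3 lower and 2 neither, against 65.5% of all genes tested that were called (31.6% higher, 33.9% lower), and the groups did not overlap for 7, against 71.8% of all genes. Cat was at 71.6% (adjusted p = 1.4e-09). Sod1 and Gpx1 were higher (log2 0.53 and 0.47, adjusted p = 0.000162 and 1.21e-05), but with total counts both turned (-0.02 and -0.09), and with TPM Sod1 was at 0.05 and Gpx1 at -0.02. Cyba and Rac2 did not pass (-0.09 and 0.17, adjusted p = 0.368 and 0.0611). Cyba was called lower with total counts (-0.65, adjusted p = 2.07e-13) and TPM (-0.58, adjusted p = 6.88e-07). For Rac2 the value turned, and was called lower, with total counts (-0.38, adjusted p = 9.69e-06) and TPM (-0.30, adjusted p = 0.00178), and it was called higher with TMM factors or edgeR (adjusted p = 0.0209 and 0.0238), without the LPS + (+)-JQ1 library of mouse 2 (0.24, adjusted p = 0.00815) and without mouse 2 in every group (0.26, adjusted p = 0.0206).

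Within (+)-JQ1-treated cells LPS still raised Sod2 by 15.6-fold, Ncf1 by 4.68-fold and Cybb by 3.35-fold, and Cat fell to 57.9% (adjusted p = 9.87e-116, 2.83e-90, 2.69e-54 and 7.02e-24). Of the members 6 rose and 1 fell, against 57.1% of all genes tested that were called (27% higher, 30.2% lower), and the groups did not overlap for 7, against 64.9% of all genes. The rises of Cyba (0.25, adjusted p = 0.0117), Ncf4 (0.28, adjusted p = 0.024) and Rac2 (0.23, adjusted p = 0.0112) were small and turned to -0.12, -0.09 and -0.15 with total counts, and Cyba and Rac2 also to -0.04 each with TPM. Each of the 3 also missed the threshold without the LPS + (+)-JQ1 library of mouse 3 (0.19, 0.20 and 0.16, adjusted p = 0.103, 0.166 and 0.125), the Cyba and Ncf4 calls without that of mouse 1 (0.23 and 0.28, adjusted p = 0.0503 and 0.0615), and the Ncf4 and Rac2 calls without the unstimulated (+)-JQ1 library of mouse 2 (0.26 and 0.20, adjusted p = 0.0832 and 0.0679). For Ncf4 that also held without the unstimulated (+)-JQ1 library of mouse 1 (0.26, adjusted p = 0.0746). Leaving mouse 1 out of every group ended the calls of Cyba, Ncf4 and Rac2 (0.23, 0.27 and 0.24, adjusted p = 0.144, 0.139 and 0.113), and leaving out mouse 3 those of Ncf4 and Rac2 (0.26 and 0.19, adjusted p = 0.0794 and 0.0686). Gpx1, which fell with LPS in untreated cells, was at 0.11 in (+)-JQ1-treated cells (95% interval -0.09 to 0.31, adjusted p = 0.389) and turned to -0.27 with total counts (adjusted p = 0.0186) and -0.17 with TPM. Sod1 was at -0.08 (adjusted p = 0.644) and was called lower with total counts (-0.45, adjusted p = 0.00112) and TPM (-0.37, adjusted p = 0.00833).

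**Figure D3:**
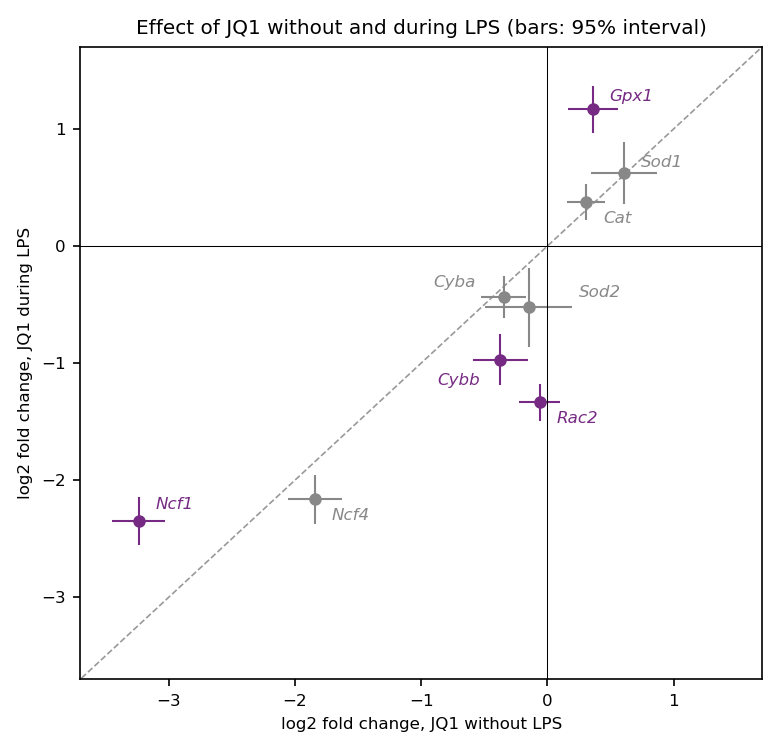
Effect of (+)-JQ1 on each gene without LPS (horizontal) and during LPS (vertical), as log2 fold change with 95% intervals, with the line of equal effect and the 4 genes whose interaction was called in purple. Rac2 lies at -0.06 and -1.34, Ncf1 at -3.24 and -2.35, Gpx1 at 0.36 and 1.17, and Cybb at -0.37 and -0.97, a difference that is lost under total-count and TPM scaling.

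The difference between the (+)-JQ1 effect during LPS and that without it was tested as an interaction, which was called for 4 members, 2 higher and 2 lower, against 40.3% of all genes tested (17.2% higher, 23.1% lower). The effect on Rac2 was 1.28 log2 units more negative during LPS (SE 0.12, adjusted p = 2.02e-26), and that on Cybb 0.60 units more negative (SE 0.16, adjusted p = 0.000626), although for Cybb the difference was -0.05 with total counts (adjusted p = 0.85) and -0.09 with TPM (adjusted p = 0.694). The effect on Ncf1 was 0.89 units less negative during LPS (SE 0.15, adjusted p = 2.47e-08), and that on Gpx1 was 0.81 units more positive (SE 0.15, adjusted p = 2.08e-07). With total counts these 3 differences were -0.72 for Rac2, 1.44 for Ncf1 and 1.36 for Gpx1, on a scale where the median of all genes lay at 0.50 against -0.05 here. Cyba (-0.09, adjusted p = 0.61), Sod1 (0.01, adjusted p = 0.969) and Cat (0.07, adjusted p = 0.651) did not pass here but were called higher with total counts (0.46, 0.57 and 0.62, adjusted p = 0.000514, 0.00599 and 9.22e-09) and with TPM (0.40, 0.50 and 0.58, adjusted p = 0.00206, 0.0138 and 6.88e-05). Ncf4 (-0.32, adjusted p = 0.078) and Sod2 (-0.38, adjusted p = 0.222) did not pass, and both turned positive with total counts (0.23 and 0.18). Both were called without the unstimulated untreated library of mouse 1 (-0.43 and -0.71, adjusted p = 0.0103 and 7.75e-05), Ncf4 also without the LPS library (-0.38, adjusted p = 0.037) or the LPS + (+)-JQ1 library (-0.41, adjusted p = 0.0319) of mouse 3, and Sod2 without mouse 1 in every group (-0.66, adjusted p = 2.24e-07). These comparisons share their control libraries.

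IL-10 given before LPS acted on fewer members. Rac2 rose 1.66-fold and Ncf4 1.33-fold over LPS alone, while Ncf1 fell to 77.1% and Cat to 82.7%. With 2 members higher, 2 lower and 5 not called, the count stands beside 15.7% of all 12407 genes tested that were called (7.67% higher, 8.02% lower). Groups did not overlap for 5 members, against 25.2% of all genes tested. The share of calls that were higher among genes with a mean of at least 10 counts was 48.8%, against 52.1% with TMM factors, 71.0% with total counts and 75.4% with TPM.

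Rac2 was at 7649, 8376 and 7256 normalised counts in LPS + IL-10 cells, above every LPS library and the highest of the 6 groups (log2 0.73, SE 0.08, adjusted p = 3.26e-18). Ncf4 was at 2845, 3199.8 and 2602, again above every LPS library (log2 0.42, SE 0.10, adjusted p = 0.000575). Ncf1 was at 8539, 7149 and 6722, each under the lowest LPS library at 8849.8 (log2 -0.38, SE 0.10, adjusted p = 0.0023). The Ncf1 call was lost with TPM (-0.25, adjusted p = 0.0657), with only the groups compared in the fit (-0.36, adjusted p = 0.0506) and without mouse 2 (-0.34, adjusted p = 0.195). The neutrophil marker sum was 31.5 to 70.0 TPM in LPS + IL-10 and 35.9 to 51.8 TPM in LPS libraries, so that the groups overlapped in it, and its part in these values was not tested.

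Cybb was at 53433, 50213 and 61528 and Cyba at 8879, 8856 and 7282 normalised counts, both overlapping the LPS libraries (log2 -0.05 and -0.12, adjusted p = 0.869 and 0.454). The 95% interval for Cybb was -0.27 to 0.17, and its value turned to 0.05 with total counts and 0.06 with TPM. Sod2 was at 27016, 28923 and 29000, above the LPS libraries without overlap, at 1.33-fold (log2 0.41, SE 0.17, adjusted p = 0.0904). The Sod2 difference was called with the mouse as a replicate block (adjusted p = 0.018), with total counts (0.50, adjusted p = 0.0264), with only the groups compared in the fit (0.42, adjusted p = 0.000489) and without mouse 1 (0.46, adjusted p = 3.1e-08). Sod1 was at 1554, 1838 and 1414 (log2 -0.26, adjusted p = 0.213, and 0.0315 with the mouse as a replicate block), and Gpx1 was at 2006, 2253 and 1952 (-0.09, adjusted p = 0.673). Cat was at 1711, 1459 and 1439 (log2 -0.27, SE 0.08, adjusted p = 0.00625). That call missed the threshold with total counts (-0.18, adjusted p = 0.0816), with TPM (-0.16, adjusted p = 0.108), with only the groups compared in the fit (-0.26, adjusted p = 0.231), without the LPS + IL-10 library of mouse 2 (-0.24, adjusted p = 0.0563) or mouse 3 (-0.22, adjusted p = 0.0517), without the LPS library of mouse 2 (-0.23, adjusted p = 0.0666), and without mouse 2 (-0.19, adjusted p = 0.457) or mouse 3 (-0.26, adjusted p = 0.1) in every group.

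Without LPS, IL-10 moved 1 member past the threshold: Cat, at 2785, 2855 and 2634 normalised counts against 3214, 3584 and 3313 in untreated cells (82.0%, log2 -0.29, SE 0.08, adjusted p = 0.00708), beside 3.96% of all genes tested that were called and 1.47% called lower. Counts did not overlap for 2 members, Cat and Rac2, against 18.7% of all genes tested. The Cat call was lost with edgeR (-0.29, adjusted p = 0.0534), with TPM (-0.23, adjusted p = 0.102), without the IL-10 library of mouse 1 (-0.29, adjusted p = 0.0575) or mouse 3 (-0.26, adjusted p = 0.0929), without the untreated library of mouse 2 (-0.24, adjusted p = 0.0851), and without mouse 2 (-0.27, adjusted p = 0.47) or mouse 3 (-0.27, adjusted p = 0.165) in every group. Sod2 was at 1562, 1162 and 1142 (log2 0.29, adjusted p = 0.593) and was called once the untreated library of mouse 1 was left out (0.63, adjusted p = 4.54e-05) or mouse 1 in every group (0.46, adjusted p = 1.86e-05). Rac2 was at 1822, 1708 and 1788 (0.11, adjusted p = 0.794).

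The interaction of IL-10 with LPS was called for Rac2 and Ncf1, against 6.6% of all genes tested (3.57% higher, 3.03% lower). The IL-10 effect on Rac2 was 0.62 log2 units more positive during LPS (SE 0.11, adjusted p = 3.29e-06), and that on Ncf1 0.47 units more negative (SE 0.14, adjusted p = 0.0184). The Ncf1 call was lost when any of 6 single libraries was left out, with values from -0.45 to -0.40 and adjusted p from 0.0527 to 0.0865: the LPS + IL-10 library of mouse 2 or 3, the LPS library of mouse 1, the unstimulated IL-10 library of mouse 1 or 2, or the unstimulated untreated library of mouse 3. Without mouse 2 in every group it was -0.42 (adjusted p = 0.541), and with TPM -0.41 (adjusted p = 0.0739).

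In cells given IL-10, LPS raised Sod2, Cybb and Rac2 (log2 4.46, 2.50 and 2.13, the last 4.37-fold), and Gpx1 and Cat fell by 0.67 and 0.85, with 6 members higher and 2 lower against 62.5% of all genes tested that were called (31% higher, 31.5% lower). The groups did not overlap for 8 members, against 68% of all genes. Ncf1 and Ncf4 rose by 0.86 and 0.90 under this scaling and were not called with total counts (0.03 and 0.07, adjusted p = 0.769 and 0.545) or TPM (0.14 and 0.17, adjusted p = 0.148 and 0.114). Cyba was higher by 0.29 (adjusted p = 0.00306), and that value turned to -0.54 with total counts and -0.45 with TPM and was not called without mouse 1 (0.24, adjusted p = 0.0994) or mouse 2 (0.24, adjusted p = 0.0839). Sod1 was at -0.19 (adjusted p = 0.229), and at -0.30 (adjusted p = 0.0485) without the unstimulated IL-10 library of mouse 1. It was called lower with total counts (-1.01, adjusted p = 4.11e-14) and TPM (-0.93, adjusted p = 1.04e-06). With total counts Cybb, Rac2 and Sod2 were at 1.67, 1.30 and 3.63 and Gpx1 and Cat at -1.50 and -1.68.

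Compared directly during LPS, (+)-JQ1 and IL-10 left all 9 members at different levels, against 55.3% of all genes tested that were called (23.8% higher, 31.6% lower). All 9 had groups without overlap, against 59.7% of all genes. Rac2 in (+)-JQ1 cells was at 23.9% of its level in IL-10 cells, Ncf4 at 16.7%, Ncf1 at 25.5%, Sod2 at 52.4% and Cybb at 52.7% (adjusted p = 2.35e-142, 7.53e-126, 1.75e-80, 1.66e-07 and 6.12e-16). Gpx1 was 2.40-fold higher, and Sod1 and Cat were higher by 0.88 and 0.65 on the log2 scale. Cyba was lower by the least (-0.31, adjusted p = 0.00133), and its call was lost with total counts (-0.03, adjusted p = 0.776), with TPM (-0.12, adjusted p = 0.119), with only the groups compared in the fit (-0.24, adjusted p = 0.0717) and without mouse 1 (-0.28, adjusted p = 0.0665) or mouse 2 (-0.19, adjusted p = 0.196).

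Ratios of TPM within a library, which scaling does not touch, put the members' balance side by side as a description. The ratio of Ncf1 to Cybb was 0.666 ± 0.0643 in unstimulated and 0.333 ± 0.0699 in LPS cells (mean ± SD, n = 3), and 0.0947 ± 0.0140 and 0.128 ± 0.00900 in the corresponding (+)-JQ1 cells. Catalytic subunit RNA thus outweighed organizer RNA in all of these groups, by the widest margin where (+)-JQ1 was given without LPS. The ratio of Ncf4 to Ncf1 was 1.77 ± 0.315 in unstimulated (+)-JQ1 cells and stayed below 1 in the means of the other 5 groups, between 0.419 ± 0.0268 in LPS and 0.721 ± 0.110 in LPS + IL-10 cells. Within the membrane core, Cybb to Cyba was 0.194 ± 0.0191 without stimulation and 0.788 ± 0.163 after LPS, and after LPS it was 0.545 ± 0.0681 in cells given (+)-JQ1 and 0.833 ± 0.177 in cells given IL-10.

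For the dismutases, mitochondrial Sod2 to cytosolic Sod1 was 0.0672 ± 0.0329 in unstimulated cells and 1.42 ± 0.209 after LPS, and after LPS it was 0.642 ± 0.0820 in cells given (+)-JQ1 and 2.26 ± 0.266 in cells given IL-10. Sod2 RNA was the more abundant of the pair in LPS and LPS + IL-10 cells, and the less abundant in LPS + (+)-JQ1 cells. For the peroxide enzymes, Gpx1 to Cat was 3.28 ± 0.216 in LPS and 5.68 ± 0.697 in LPS + (+)-JQ1 cells. The TPM sum of the 5 oxidase genes was 2531 ± 221 in unstimulated, 2878 ± 102 in LPS, 1973 ± 49.9 in LPS + (+)-JQ1 and 3018 ± 102 in LPS + IL-10 cells, and most of it was Cyba and Cybb. The sum of the 4 removal enzymes was 1426 ± 73.9, 1074 ± 75.7, 1708 ± 105 and 1239 ± 106 TPM in the same groups.

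**Figure D4:**
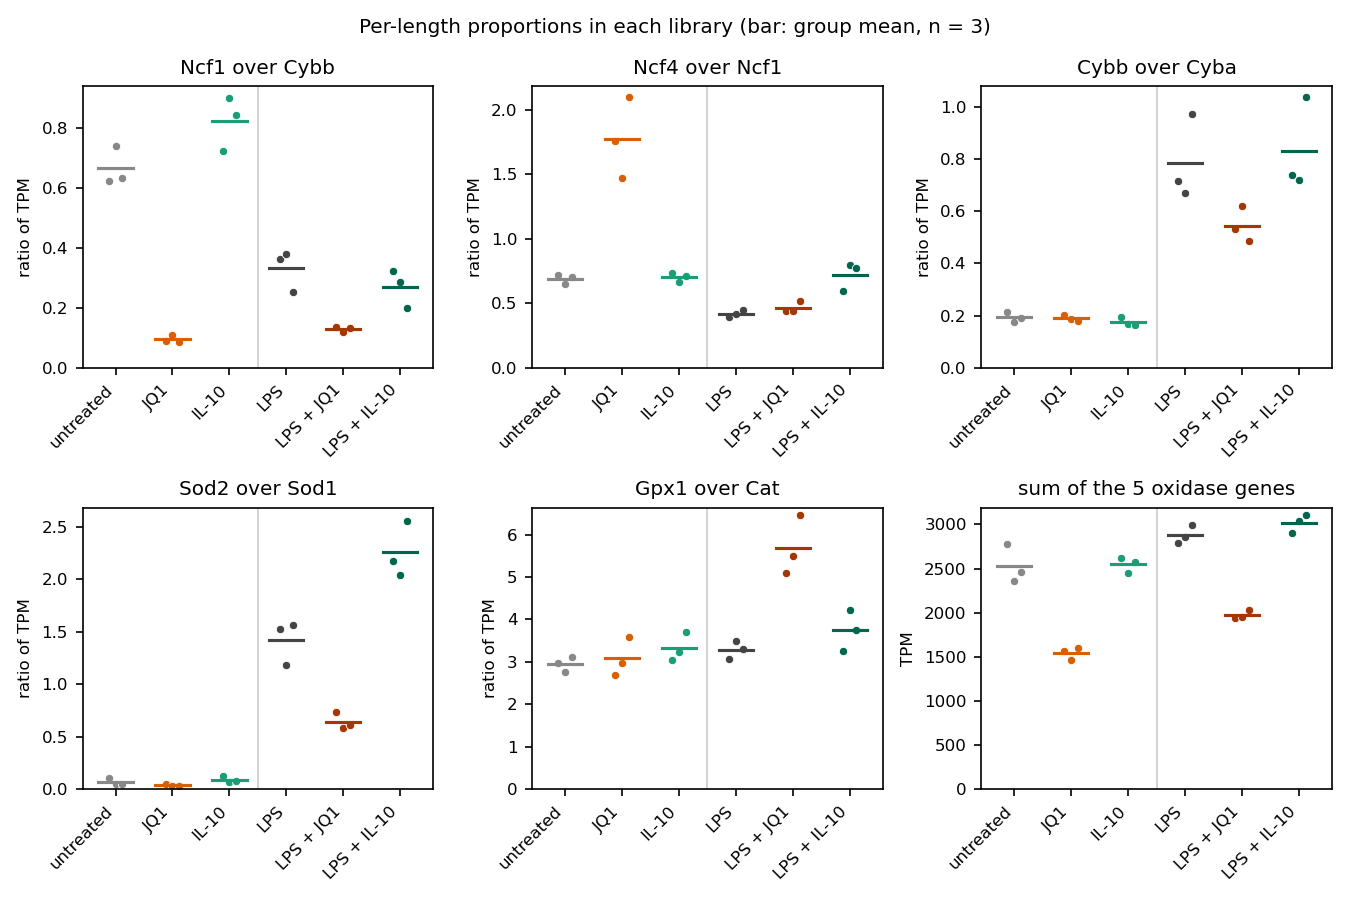
TPM ratios between members within each library and, in the last panel, the TPM sum of the 5 oxidase genes, with 1 point per library and a bar at the mean in each of the 6 groups. Ncf1 to Cybb is lowest in unstimulated (+)-JQ1 cells, at 0.0947 on average, and after LPS Sod2 to Sod1 averages 1.42 in untreated cells, 0.642 in cells given (+)-JQ1 and 2.26 in cells given IL-10.

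Other genes of the same biology were taken from 3 lists: 19 other oxidase subunits, regulators and NOX family members, 17 other enzymes of superoxide and peroxide handling, and 8 genes for other superoxide sources or for factors that act on oxidase genes. After LPS, 8 of the 15 tested in the first list rose and 5 fell, 8 of 17 rose and 4 fell in the second, and 5 of 8 rose in the third, with medians of 0.38, 0.43 and 1.63 against -0.06 over all genes tested. Of all genes tested, 30.8% were called higher and 32.2% lower. The 8 genes of the third list included Hoxa9, at a mean of 0 TPM in unstimulated and LPS cells, and Cebpe, at 0.35 and 0.22 TPM. With total counts the list medians were -0.54, -0.50 and 0.32, with 3, 4 and 3 genes called higher and 10, 9 and 1 lower. There 7 genes of the third list were tested, so its 2 medians cover different genes. Phospholipase Pla2g4a (2.98), the kinase Prkcd (1.74), which phosphorylates p47phox, peroxiredoxin Prdx5 (2.98), thioredoxin reductase Txnrd1 (1.90) and thioredoxin Txn1 (1.77) rose, as did the transcription factors Irf1 (4.38), Irf8 (2.89) and Spi1 (2.02), while the exchange factor Vav1 fell (-1.09), and these 9 kept their sign on every scale tried.

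During LPS, (+)-JQ1 lowered 10 of 15, 9 of 17 and 4 of 6 genes tested in the 3 lists and raised 3, 4 and 0, with medians of -0.51, -0.64 and -1.13 against -0.11 over all genes. Of all genes tested, 32.9% were called lower and 24.4% higher. With total counts 6, 3 and 4 list genes were lower and 4, 7 and 0 higher, so the balance of the second list turned. The list medians were -0.13, -0.27 and -0.75 with total counts. With TPM they were -0.21, 0.05 and -0.77, over 14, 14 and 5 genes tested. On those scales the median of all genes with a mean of at least 10 counts was 0.29 and 0.18. The voltage-gated proton channel Hvcn1 was at 18.6% of LPS alone (log2 -2.42, adjusted p = 4.29e-75), Prdx5 at 31.1% (-1.69), Spi1 at 34.2% (-1.55), Pla2g4a at 35.6% (-1.49), xanthine dehydrogenase Xdh at 44.1% (-1.18) and Irf1 at 47.6% (-1.07). Prdx2 (-0.92), Prkcd (-0.90) and glutathione reductase Gsr (-0.79) were also lower, and all 9 kept sign and call on every scale tried.

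With IL-10 during LPS, 3 of 14, 1 of 15 and 1 of 5 genes tested rose and 0, 2 and 2 fell, with medians of 0.13, -0.02 and 0.02 against -0.02 over all genes tested. Of all genes tested, 7.67% were called higher and 8.02% lower. Vav1, which activates Rac proteins, was 3.60-fold higher (log2 1.85, adjusted p = 3.67e-124), and Pla2g4a (0.91), BC017643 (0.39), whose product is needed for stable gp91phox, Gsr (0.51) and Cebpb (1.43) were higher. Irf8 (-1.45) and Irf1 (-0.90) were lower. Prdx6 (-0.24, adjusted p = 0.0245) and Txn1 (-0.19, adjusted p = 0.0392) were lower too, and neither was called with total counts (adjusted p = 0.296 and 0.448). In unstimulated cells (+)-JQ1 raised 2 of 14, 4 of 17 and 1 of 6 and lowered 5, 4 and 3 (medians -0.08, 0.08 and -0.52 against 0.00 over all genes). Of all genes tested, 21.3% were called higher and 23.1% lower. With total counts 0, 4 and 1 list genes were higher and 7, 5 and 4 lower, with medians of -0.25, -0.09 and -0.70. With TPM, over 14, 14 and 5 genes tested, the medians were -0.26, -0.10 and -0.57. The median of all genes with a mean of at least 10 counts was -0.16 on both scales. Without LPS, IL-10 raised 1 of 12, 1 of 14 and 0 of 5 and lowered none, against 2.5% of all genes called higher and 1.47% lower.

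**Figure D5:**
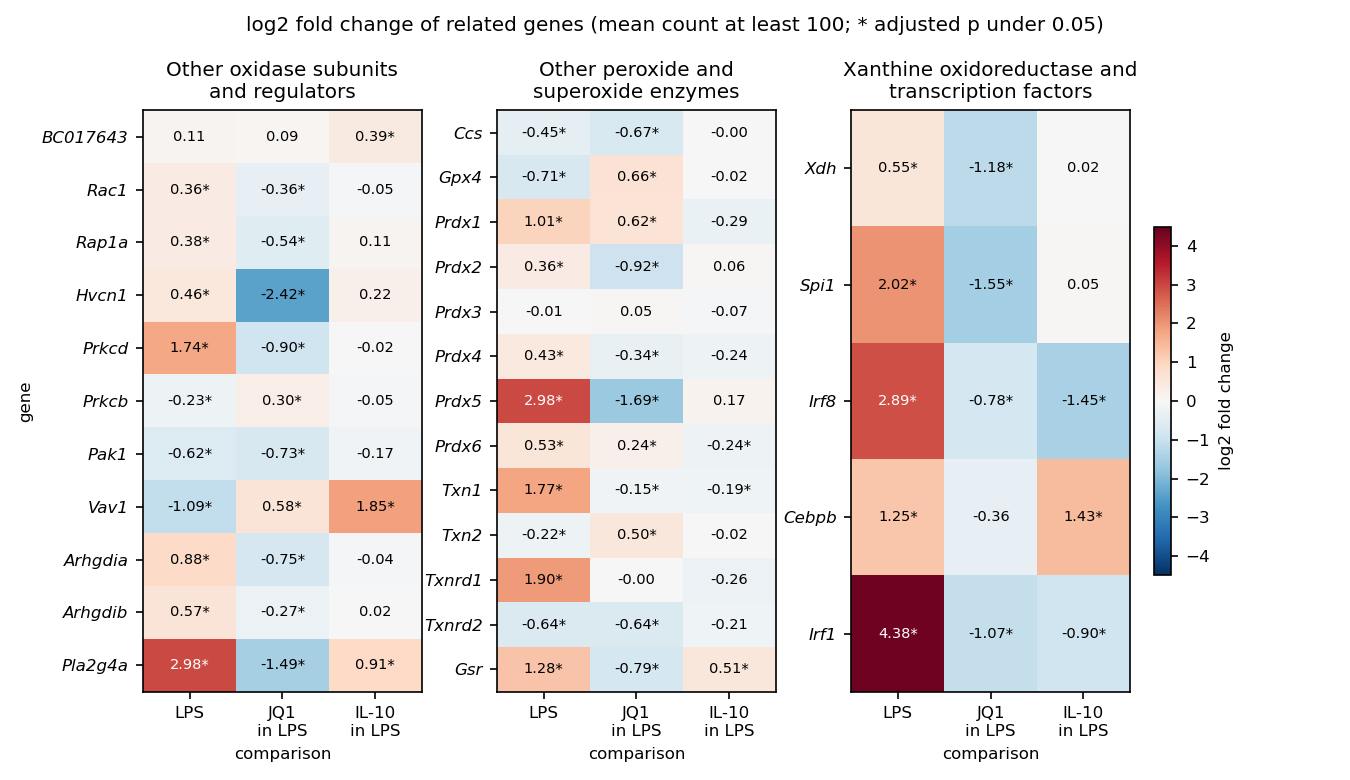
Log2 fold change (colour) of related genes with a mean of at least 100 normalised counts in the LPS response, the (+)-JQ1 effect during LPS and the IL-10 effect during LPS, with * where a gene was called. Vav1 is at -1.09, and at 1.85 with IL-10, and Hvcn1 is at -2.42 with (+)-JQ1; LPS signs of small size turn under total-count scaling, where the list medians are -0.54, -0.50 and 0.32.

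Across the 18 libraries, the gene whose log2 normalised count was most like that of Cybb was Trim30d (Pearson r = 0.996) among 8369 genes with a mean of at least 100 counts. For the other members it was Gm10052 for Cyba (0.963), Emp3 for Ncf1 (0.982), Pirb for Ncf4 (0.991), Agtrap for Rac2 (0.989), Atp2a3 for Sod1 (0.966), Marcksl1 for Sod2 (0.996), Dynll2 for Gpx1 (0.985) and Dgkd for Cat (0.978). Among the members, Cybb was closest to Sod2 (0.977), Ncf1 to Ncf4 (0.912), Sod1 to Gpx1 (0.851), and Cat and Cybb ran most oppositely (-0.915). The 18 points share 6 groups, 3 mice and common libraries, so these values describe likeness over the design and carry no test.

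On mm9, in the positions of GENCODE vM1, the members are protein-coding genes on 8 chromosomes, with Ncf4 and Rac2 both on chromosome 15. Cybb spans chrX:9012378-9064897 on the minus strand, Cyba chr8:124948672-124956840 (minus), Ncf1 chr5:134695923-134705495 (minus), Ncf4 chr15:78075231-78093010 (plus) and Rac2 chr15:78389599-78403213 (minus). Sod1 spans chr16:90220987-90226567 (plus), Sod2 chr17:13200705-13210985 (plus), Gpx1 chr9:108241607-108242671 (plus) and Cat chr2:103294006-103325317 (minus). Ncf1 was the only member whose exons overlapped those of another gene.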

How the data were processed

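RNA was measured in 18 libraries of Il10-/- BMDMs, 6 groups of 3, made with a stranded, ribosomal RNA-depleting kit and sequenced in pairs of reads. Per the labels and the study's methods, the authors extracted reads with TagDust, used STAR against mm9 and took gene values from RSEM 1.2.31 at default settings, which do not use strand. The deposited files give expected counts, TPM and FPKM per gene, the last 2 computed by RSEM as deposited by the authors, and FPKM was not used. Of the expected counts, 5.40% to 6.63% per library were not whole, and all were rounded here. Rn45s, a ribosomal precursor, held 9.11% to 12.5% of each library without LPS and 5.54% to 7.92% with LPS. Library totals are given with the results, the CPM of 3 counts covers counting error only, and the 95% intervals of fold changes are Wald intervals that include the spread between libraries.

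DESeq2 1.42.0 (R 4.3.3) was run with median-of-ratios size factors, group as the only term, all 18 libraries and Wald tests with default independent filtering. All p-values are two-sided and adjusted over all genes tested. Simulated counts with known changes were used to test each tool. Alternatives were edgeR 4.0.16, TMM or total-count factors, limma 3.58.1 on log2(TPM + 1) or log2(TPM + 0.1), a minimum of 10 counts in every library, no independent filtering, only the groups compared, the replicate as a block, the lane, both, and leaving out each library or each mouse. TPM levels were also rescaled without Rn45s. The study's design calls the samples matched, and the correlations of same-numbered libraries' deviations from their group means were 0.12, 0.11 and 0.15 for LPS, 0.070, -0.067 and -0.12 for (+)-JQ1 during LPS, and 0.20, 0.28 and 0.47 for IL-10 during LPS. Libraries of one group differed by more than sampling noise in every pair (chi-square per degree of freedom 3.97 to 28.3). The pairs with the library of mouse 3 in LPS cells (24.2 and 28.3) and in LPS + IL-10 cells (28.0 and 26.9) stood apart. All other pairs were at 10.5 or less. Per the library names, lane 7 held all libraries of mouse 1, lane 8 all of mouse 3, and mouse 2 was in lane 7 without and lane 8 with LPS.

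The 9 members and the lists were chosen with earlier results of these data known. Named from the lists were up to 3 genes with the largest change among those called, with a mean of at least 100 counts and moved the same way in all 3 mice. Some single-gene results are not reported here. The most alike gene was taken over genes with a mean of at least 100 counts. The ISRE core was searched as a pair of its half-sites with a gap and the NF-kB consensus by its degenerate form. The others were searched by the letters given, where N stands for any base.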

Additional observations from a re-analysis of the deposited data

Results flagged for a closer look

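For 6 results the effect of a pretreatment differed with and without LPS by an interaction term in the DESeq2 fit. For the (+)-JQ1 effect on Rac2 the difference, during LPS minus without it, was -1.28 log2 units (adjusted p = 2.02e-26), since Rac2 stood at -0.06 in unstimulated cells and -1.34 during LPS. On Cybb the difference was -0.60 (adjusted p = 0.000626), and it was not called under total-count or TPM scaling. On Ncf1 the difference was 0.89 (adjusted p = 2.47e-08), from a drop to 10.6% without LPS and to 19.6% during LPS. On Gpx1 it was 0.81 (adjusted p = 2.08e-07), from 1.28-fold without LPS and 2.25-fold during LPS. The IL-10 effect differed for Rac2 by 0.62 (adjusted p = 3.29e-06), from 0.11 without LPS and 0.73 during it, and for Ncf1 by -0.47 (adjusted p = 0.0184), a call that was lost when any of 6 single libraries was left out. Single outlying libraries were screened by the DESeq2 default, which withholds the p-value of a gene with an outlying count. No outlying count was replaced. Under total-count scaling the (+)-JQ1 differences for Rac2, Ncf1 and Gpx1 were -0.72, 1.44 and 1.36.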

How the results depend on the processing

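The lane as a covariate and no independent filtering changed none of the 99 gene-level results of the members, and the replicate block changed 2 of 99, Sod1 and Sod2 during LPS with IL-10, which it brought past the threshold (adjusted p = 0.0315 and 0.018), and no other call. With block and lane together the LPS responses of Ncf4 (0.23, adjusted p = 0.088) and Rac2 (0.21, adjusted p = 0.0528) in (+)-JQ1-treated cells were lost too, and the first was also lost with at least 10 counts in every library (0.23, adjusted p = 0.0612). Scaling mattered most: 17 of 99 values changed sign with total counts and 13 of 99 with each TPM fit, while TMM factors and edgeR turned 1 each. The cause was not tested, beyond the shift of the median of all genes given for each scale.

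With total counts the LPS response turned to -0.58 for Cyba and -0.32 for Ncf4, that in IL-10-treated cells to -0.54 for Cyba, and that in (+)-JQ1-treated cells to -0.12 for Cyba, -0.093 for Ncf4, -0.15 for Rac2 and -0.27 for Gpx1. LPS + (+)-JQ1 against unstimulated cells turned to -0.38 for Rac2, -0.019 for Sod1 and -0.085 for Gpx1. IL-10 during LPS turned to 0.047 for Cybb and 0.00057 for Gpx1. The (+)-JQ1 interaction turned to 0.46 for Cyba, 0.23 for Ncf4 and 0.18 for Sod2, and the IL-10 interaction to 0.040 for Cyba and 0.0042 for Sod1. With TPM and a pseudocount of 1 or 0.1, the LPS response turned to -0.44 and -0.44 for Cyba and -0.17 and -0.17 for Ncf4, that with IL-10 to -0.45 and -0.45 for Cyba, and that with (+)-JQ1 to -0.038 and -0.038 for Cyba, -0.041 and -0.041 for Rac2 and -0.17 and -0.17 for Gpx1. LPS + (+)-JQ1 against unstimulated cells turned to -0.30 and -0.31 for Rac2 and -0.017 and -0.017 for Gpx1, and IL-10 during LPS to 0.061 and 0.061 for Cybb and 0.018 and 0.018 for Gpx1. The (+)-JQ1 interaction turned to 0.40 and 0.40 for Cyba, 0.17 and 0.17 for Ncf4 and 0.073 and 0.079 for Sod2. For Cyba it also turned to 0.011 with edgeR and 0.033 with TMM factors.

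Leaving out a library or a mouse turned the sign of results that were not called, with values from -0.13 to 0.032 for Cybb and -0.16 to 0.0080 for Gpx1 (IL-10 during LPS), -0.22 to 0.015 for Sod1 (LPS), -0.30 to 0.19 for Sod2 ((+)-JQ1 without LPS), -0.17 to 0.025 for Cyba and -0.089 to 0.15 for Sod1 ((+)-JQ1 interaction), and -0.068 to 0.076 for Cat, -0.14 to 0.035 for Cyba, -0.042 to 0.13 for Gpx1, -0.21 to 0.036 for Sod1 and -0.23 to 0.28 for Sod2 (IL-10 interaction). Where an arm kept only 2 libraries, its spread was taken from all groups.

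The number of members called was 4 for IL-10 during LPS, 2 and 2 with TPM, and 2 to 5 when a library or mouse was left out. It was 7 and 4 to 7 for (+)-JQ1 without LPS, and 7 and 4 to 7 for LPS in (+)-JQ1-treated cells. For IL-10 without LPS it was 1, against 0 with edgeR, 0 and 0 with TPM, and 0 to 2. For the IL-10 interaction it was 2, against 1 and 1 with TPM, and 1 to 2. Over all genes, IL-10 during LPS called 1947, against 1093 with only the groups compared and 874 to 1250 without a mouse. IL-10 without LPS called 365, against 231 with edgeR, 171 and 117 with TPM and 115 to 199 without a mouse. Without mouse 1, (+)-JQ1 without LPS called 4033 in place of 6219 and its interaction 3428 in place of 5253. The IL-10 interaction called 798, against 529 with TPM + 0.1 and 291 to 467 without a mouse. Among genes with a mean of at least 10 counts, the share of calls that were higher, with total counts and with TPM, went from 63.0% to 60% and 85.4% for IL-10 without LPS, from 48.0% to 26.2% and 30.8% for LPS in (+)-JQ1-treated cells, from 50.1% to 21.4% and 23.2% for LPS in IL-10-treated cells, from 44.0% to 62.2% and 58.0% for (+)-JQ1 against IL-10, from 50.2% to 23.6% and 26.8% for LPS + (+)-JQ1 against unstimulated, from 42.8% to 85.7% and 82.8% for the (+)-JQ1 interaction (54.9% with TMM factors), and from 53.8% to 73.7% and 61.9% for the IL-10 interaction. Without Rn45s, 5 mean TPM levels moved by more than 1 SD, at most to 1781 for Cyba in unstimulated IL-10 cells.

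With 3 libraries in each group, calls near the threshold depend on single libraries. Depth was not the limit for the members, whose lowest count was 387. RNA levels say nothing of protein, assembly or superoxide output.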
